A study of Mus musculus with 22 samples.

Results

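The Padi cluster of mouse chromosome 4 holds 5 genes, Padi1, Padi2, Padi3, Padi4 and Padi6, which are all members of the family and were taken by name out of 37991 genes in the RNA count tables. They encode the peptidylarginine deiminase family. The active enzymes of this family turn arginine in a protein into citrulline (citrullination) and need calcium to do so. The loss of the positive charge changes how the modified protein folds and binds. Padi1 and Padi3 are known from epidermis and hair follicle, where their substrates include filaggrin and trichohyalin. Padi2 is the most widely expressed member, Padi4 is known from neutrophils, where it citrullinates histones during the release of chromatin traps, and Padi6 is an oocyte protein of the subcortical maternal complex.

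The cluster was read in whole-genome bisulphite sequencing (WGBS) of 12 libraries and RNA-seq of 6 livers. WGBS covered E10.5 whole embryos, E14.5 fetal livers and E18.5 fetal livers, with 2 wild-type (Rlf+/+) and 2 homozygous mutant (Rlf MommeD28/MommeD28) samples at each stage, and RNA-seq covered 3 E14.5 livers of each genotype. MommeD28 is a null allele of Rlf, a zinc finger gene, that arose by ENU mutagenesis. All mice were inbred FVB/NJ animals of Line3, and the wild types carried the same homozygous multi-copy GFP transgene, driven by a human alpha-globin promoter with its HS-40 enhancer, as the mutants. The E14.5 livers for WGBS came from littermates. Sex was balanced between the genotypes but not between the stages. The E10.5 embryos were male and the E18.5 livers female, while each genotype had 1 male and 1 female E14.5 liver for WGBS and 2 males and 1 female for RNA-seq. Stage, tissue and sex therefore cannot be told apart between the E10.5 embryos and the E18.5 livers, nor stage and tissue between the embryos and the E14.5 livers, of which replicate 1 of each genotype was male and replicate 2 female. The labels list 4 further ChIP-seq samples for H3K4me1, which were not analysed here.

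The mean number of reads per covered CpG was 16.8 to 18.97 in the E10.5 embryos, 31.4 to 35.4 in the E14.5 livers and 17.6 to 18.3 in the E18.5 livers. Unconverted cytosines in the spiked lambda DNA came to 0.0412% to 0.0775%. The RNA libraries held 12928313 to 14621004 counts over genes. Rlf itself lies on chromosome 4 (mm9, 120817978 to 120887689), 19.39 Mb from the cluster. Its RNA was at 68.9 to 72.3 CPM (counts scaled to 1000000 per library) in wild types and at 67.6 to 79.8 CPM in mutants (log2 fold change 0.08, SE 0.07, edgeR adjusted p = 0.6465), and since ENU alleles are point mutations this level does not check the genotype labels. The liver-defining transcripts Afp and Alb stood at 29804 and 26652 CPM on average in wild types and at 33742 and 32165 CPM in mutants.

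The cluster was chosen by the methylation of Padi1 in E14.5 livers, so the E14.5 difference between genotypes is given as a description without a test. The region tested in E10.5 embryos and E18.5 livers was defined on the E14.5 livers alone. The tests at those stages were still chosen with earlier results of these data known, so they are no independent check of the choice of locus. The window ran from 5 kb before the first gene to 5 kb after the last (mm9 chromosome 4, 140278270 to 140513501, 235232 bp). From the low to the high coordinate it held Padi6 (140283270 to 140298558), Padi4 (140301780 to 140330151), Padi3 (140341280 to 140366563), the lincRNA gene Gm13032 (140366908 to 140373426), Padi1 (140368898 to 140401693), the noncoding transcript 4930515B02Rik (140428608 to 140433970) and Padi2 (140462259 to 140508501). The end of Rcc2 (to 140279135), a U6 snRNA gene (140474599 to 140474714) and the noncoding transcript Gm13031 (140503581 to 140513817) fall wholly or partly in the window too. Padi6, Padi4, Padi3 and Padi1 are transcribed from the minus strand and Padi2 from the plus strand. Each of the 5 Padi genes has 16 exons in its longest coding transcript.

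In the E14.5 livers 1 run of CpGs in the window gained more than 15 percentage points in the mutants. It was found by pooling the reads of 5 consecutive CpGs and joining windows no more than 300 bp apart. The run spans 1200 bp (140369870 to 140371069) at the 3′ end of Padi1, with 300 bp in intron 15, the 231 bp coding part of the last exon and 669 bp of the 3′ UTR. The whole run also lies inside the gene Gm13032, which is on the opposite strand, and 313 bp of it belong to exon 2 of 3 of that gene. With the run included, the body of Gm13032 was higher in mutants by 16.4, 19.1 and 23.0 points at E10.5, E14.5 and E18.5, without overlap. The centre of the run lies 31224 bp from the start site of Padi1 and 3906 bp from that of Padi3. The run holds 3.83 CpGs per 100 bp against 1.61 in the whole window, and its observed over expected CpG ratio was 0.480 against 0.241. The same search in embryos gave 1 run, inside this one (140369936 to 140370819), and in E18.5 livers it gave a run there (140369853 to 140371058) and 4 others, all higher in mutants. Those 4 are in Padi3 (from 140361237), in Padi1 (from 140381856), between the genes (from 140425069) and in Padi2 (from 140474548), with 9 to 10 CpGs each. They differed by 18.49 to 21.1 points in the E18.5 livers that defined them, by -3.21 to 12.4 points in E14.5 livers and by -0.236 to 7.61 points in embryos. At a minimum of 20 points the search found 1 run at each stage, at the 3′ end of Padi1.

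The last exons encode the end of the deiminase, and their coding part is 231 bp long in every member. In the mm9 reference it holds the most CpGs in Padi1, with 14, against 11 in Padi2, 11 in Padi3, 7 in Padi4 and 2 in Padi6. In Padi2 the libraries read 12 sites there.

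The run was far less methylated in wild types than in mutants at all stages. In E10.5 embryos its methylation level was 41.9% and 47.9% in the wild types and 76.5% and 75.3% in the mutants. In E14.5 livers, which defined the run, it was 40.3% and 32.8% against 75.9% and 76.1%. In E18.5 livers it was 37.8% and 38.2% against 79.6% and 75.7%. No wild-type library reached a mutant library of its stage. The difference was 30.9 points in the embryos, 39.5 points in the E14.5 livers and 39.6 points in the E18.5 livers. Over E10.5 and E18.5, the stages that did not define the run, the mean difference was 35.3 points (exact two-sided permutation of genotype within stage, p = 0.0556, the smallest that 36 arrangements allow), and a single stage with 2 libraries a genotype cannot go below p = 0.333. The mean reads per CpG behind these levels were 17.3 to 22.4, 38.5 to 42.0 and 21.4 to 22.8 at the successive stages.

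The gain was spread over the CpGs of the run. In the embryos the mutant mean was higher at 43 of 44 CpGs, and both mutants lay above both wild types at 38 of them. In E18.5 livers these counts were 44 and 43 of 45 CpGs, and in the defining E14.5 livers 45 and 43 of 45. Over all 1 kb tiles of the genome, both mutants lay above both wild types in 31.2%, 31% and 33.3% of tiles, respectively. A tile pools at least 8 CpGs, and the share over single CpGs of the genome was not computed. The median gain per CpG was 33.1 points in embryos, 41.4 points in E14.5 livers and 41.6 points in E18.5 livers. In wild types 5, 9 and 4 CpGs were under 20% methylated at E10.5, E14.5 and E18.5, while in mutants there were 0 at each stage, with the lowest mutant CpG at 40.4%, 38.1% and 37.3%.

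**Figure D1:**
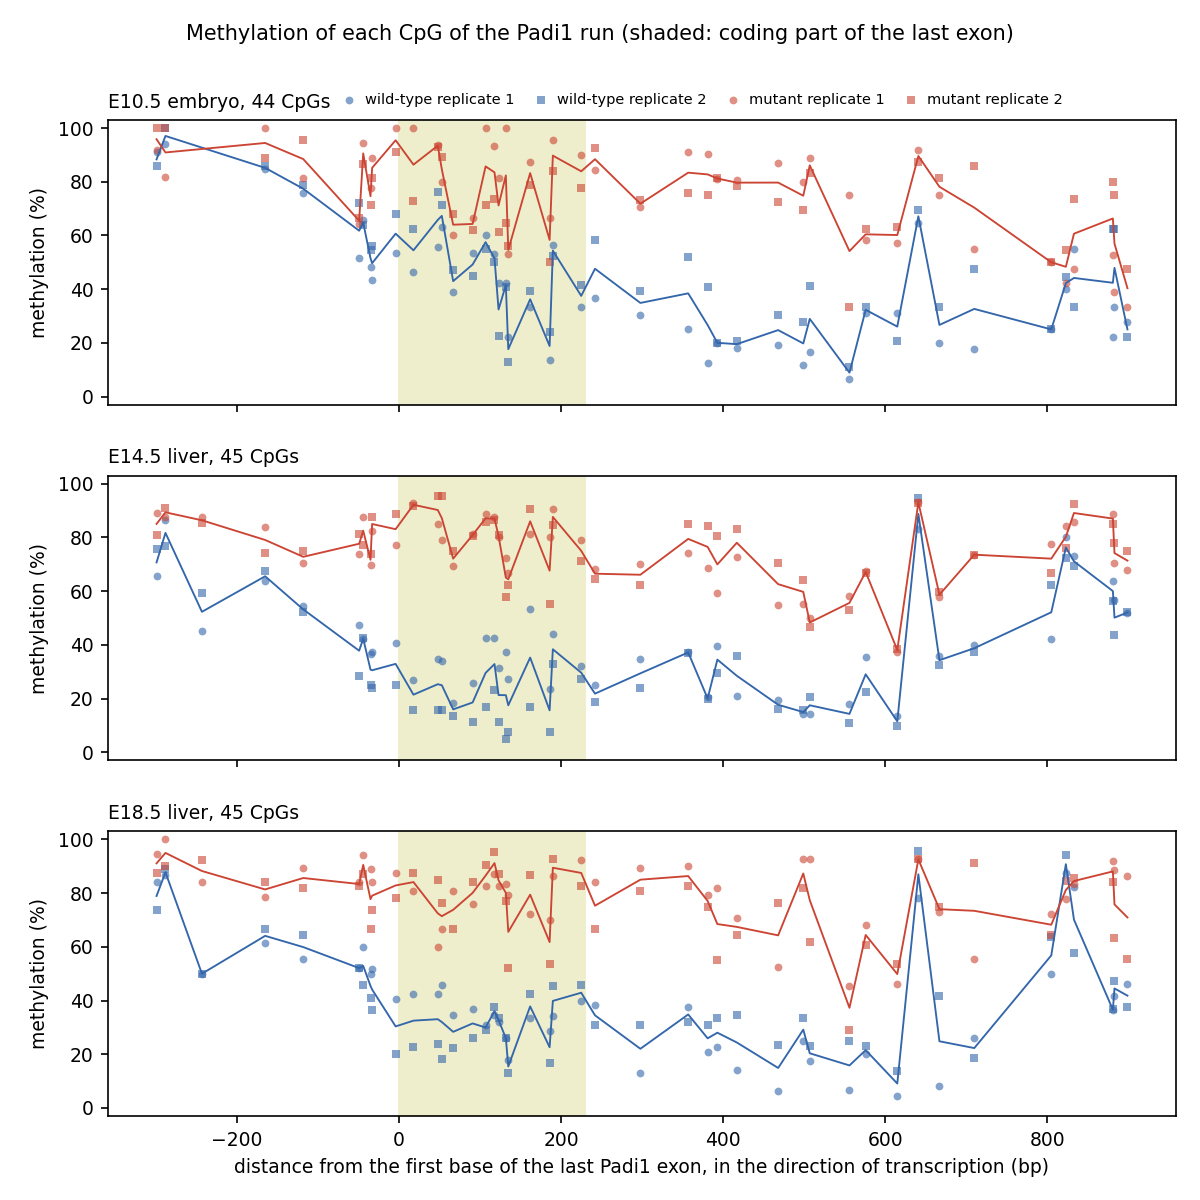
Methylation (percent, y axis) of each CpG of the Padi1 run against its distance from the first base of the last Padi1 exon (bp, x axis), with one panel per stage, points for the libraries and lines for the mean of each genotype. The mutant line lies above the wild-type line at 43 of 44, 45 of 45 and 44 of 45 CpGs, and the coding part of the last exon is shaded.

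Within the coding part of the last exon, the mutant mean exceeded the wild-type mean at each of the 14 CpGs and at each of the 3 stages. In embryos this part was at 43.3% and 45.6% in wild types and 83.7% and 73.0% in mutants. In E18.5 livers it was at 34.1% and 28.8% in wild types and 79.1% and 79.5% in mutants. The E14.5 wild types differed most between replicates, at 33.8% and 16.3%, against 81.1% and 79.5% in the mutants. The difference was 33.8 points at E10.5, 55.3 points at E14.5 and 47.8 points at E18.5. Counted from the first base of the exon, the CpG at position 18 had the largest gain of the run in the E14.5 livers, which defined the run. It moved there from 21.4% in wild types to 92.2% in mutants. In embryos it moved from 54.5% to 86.4% and in E18.5 livers from 32.5% to 84.1%. The CpG at position 135 stayed the lowest of the 14 in wild types at E10.5 and E18.5, at 17.6% and 15.5%, and stood at 54.6% and 65.6% in mutants.

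The 3′ UTR part and the intron part of the run also gained methylation. The 3′ UTR part was at 26.8% and 37.4% in wild-type embryos and 68.6% and 72.5% in mutant embryos, and at 31.4% and 39.3% against 76.3% and 70.2% in E18.5 livers. The intron part was at 64.8% and 72.6% against 86.6% and 84.8% in embryos and at 57.3% and 52.2% against 88.6% and 81.8% in E18.5 livers. The groups did not overlap in either part. The intron part differed by 16.97, 32.6 and 30.4 points and the 3′ UTR part by 38.4, 31.9 and 37.9 points at E10.5, E14.5 and E18.5.

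Outside the run the genotypes differed less than over the run as a whole. Over CpGs within 500 bp of either end the difference was -0.459 points in embryos, 9.12 points in E14.5 livers and 15.5 points in E18.5 livers. On the 7 CpGs of the embryos the groups overlapped, and the difference ran from -7.45 points without wild-type replicate 1 to 6.53 points without wild-type replicate 2. Without wild-type replicate 2 that of the E18.5 livers was 9.48 points. At 500 to 1000 bp it was 5.97, 11.4 and 8.74 points. The 4 CpGs just before the run in E18.5 livers were at 60.9% and 55.7% in wild types and 78.8% and 78.2% in mutants. That difference of 20.1 points was larger than the 16.97 points of the intron part of the run in embryos. The sides differed at 1 to 2 kb. Before the run, in the direction of Padi3, mutants were higher by 9.75, 10.7 and 10.2 points at E10.5, E14.5 and E18.5 without overlap. After the run, inside Padi1, the difference was 5.99, -1.94 and 5.34 points. The embryo value there was 2.68 points without wild-type replicate 2. The E18.5 value was 3.38 points without wild-type replicate 2 and likewise without mutant replicate 2. At 2 to 5 kb on both sides the difference was 2.68, 2.88 and 2.93 points, the last being 0.0604 points without mutant replicate 1. The 1 kb tile from 140372001 lies inside both Padi1 and Gm13032 and held 14 CpGs that were low in livers of both genotypes. Its mean level in wild types was 49.4%, 9.56% and 17.5% at E10.5, E14.5 and E18.5, and in mutants 56.0%, 7.59% and 22.8%. The genotypes did not pass the test in this tile (6.64 points, adjusted p = 0.626 at E10.5, and 5.22 points, adjusted p = 0.766 at E18.5, edgeR).

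**Figure D2:**
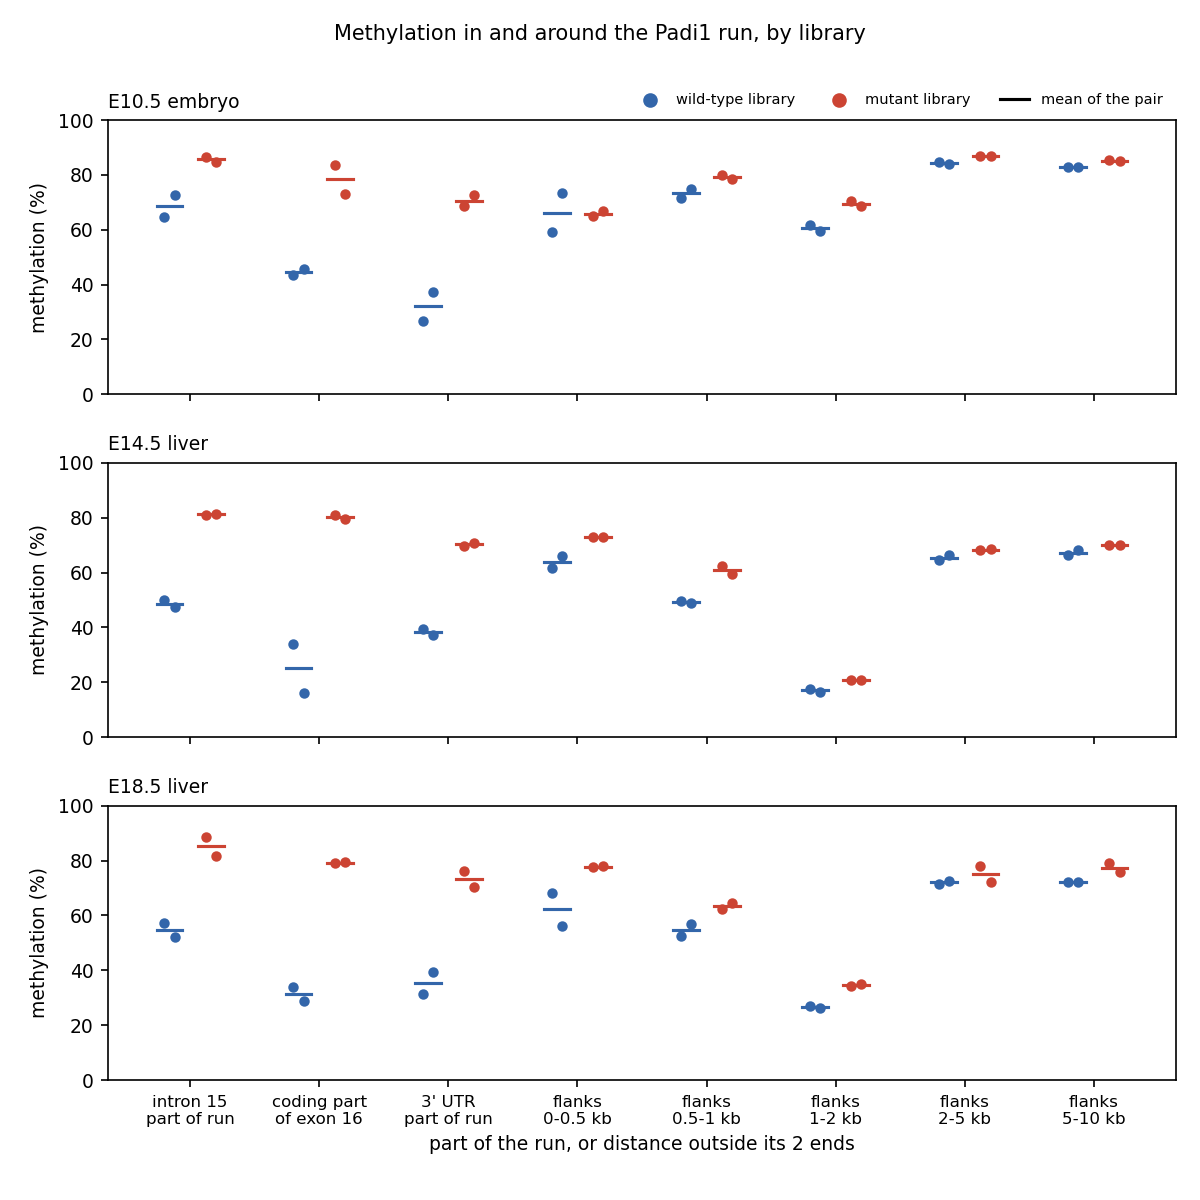
Methylation (percent, y axis) of the 3 parts of the Padi1 run and of CpGs at increasing distance outside both its ends (x axis), with one point per library, a line for the mean of each pair and one panel per stage. Wild types and mutants stand 16.97 to 55.3 points apart inside the run and 2.25 to 5.19 points apart at 5 to 10 kb, and the 1 to 2 kb flank falls to 17.03% in wild-type and 20.9% in mutant E14.5 livers.

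Against the mean of the rest of the window the run was a low spot in wild types and not in mutants. In wild-type livers it was not the lowest place of its surroundings. The 1 kb tile from 140372001 was at 9.56% and 17.5% in wild types at E14.5 and E18.5, where the run was at 36.5% and 38.0%. The E14.5 values here are only a description, since the genotype difference of those livers defined the run. On CpGs read in all 12 libraries, the run minus the rest of the window was -33.3 and -28.0 points in wild-type embryos, -19.6 and -29.5 points in wild-type E14.5 livers and -27.4 and -26.7 points in wild-type E18.5 livers. In mutants it was -0.973 and -2.97 points in embryos, 11.8 and 12.9 points in E14.5 livers and 8.67 and 8.94 points in E18.5 livers. The rest of the window was 77.8% methylated in mutant embryos, 63.4% in mutant E14.5 livers and 68.7% in mutant E18.5 livers, while the run in mutants was at 75.9%, 75.8% and 77.5%.

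The question of whether other places in the cluster differed between genotypes was put to 1 kb tiles with at least 8 CpGs, each read at least 6 times in every library of the stage. A tile was called at an adjusted p under 0.05 (edgeR quasi-likelihood test on methylated and unmethylated counts, Benjamini-Hochberg over all tiles of the genome) and a difference over 15 points. This test borrows spread from all tiles of the genome, so a small p does not come from the spread within that tile alone. In embryos 1 of 181 tiles was called higher in mutants and 0 were called lower, where 0.361% of 608786 tiles in the genome were called higher and 0.00279% lower. In E18.5 livers 1 of 188 tiles was called higher and 0 lower, where 0.13% of 689415 tiles were called higher and 0.0029% lower. The called tile was the same at both stages, the one from 140370001 in Padi1 and Gm13032 with 36 CpGs. It stood at 40.5% and 46.1% in wild-type and 82.0% and 76.3% in mutant embryos (35.8 points, adjusted p = 4.1e-09). In E18.5 livers it stood at 33.7% and 33.5% against 77.9% and 75.1% (42.9 points, adjusted p = 3.5e-19). By the size of the gain it ranked 23 in the genome in embryos and 7 in E18.5 livers. In the E14.5 livers, whose values chose the locus, it ranked 2 of 909678 tiles, with 43.8 points.

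Without wild-type replicate 2 or without mutant replicate 2 the embryos gave 2 called tiles in the cluster, the added one from 140368001 over the 3′ end of Padi1 (18.2 points, adjusted p = 0.0393, and 18.7 points, adjusted p = 0.0216, in the same test). With all 4 embryos that tile was at 60.3% and 67.1% in wild types and 82.4% and 74.6% in mutants (14.8 points, adjusted p = 0.0711). Without mutant replicate 2 the E18.5 livers gave 5 called tiles, the added ones in Padi4 (from 140319001), in Padi3 (from 140365001) and between the genes (from 140416001 and 140425001), and the tiles called in the whole genome then rose from 915 to 6393. The remaining E18.5 mutant, replicate 1, was the most methylated E18.5 liver over the whole window, at 70.9% against 66.5% in mutant replicate 2 and 64.4% and 64.2% in the wild types. The tile in Padi4 was at 27.2% and 25.7% in wild-type and 53.6% and 38.5% in mutant E18.5 livers (19.6 points, adjusted p = 0.0919 with all 4 livers). In embryos the Padi4 tile differed by 5.59 points and in E14.5 livers by -6.54 points.

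Over the tiles of the cluster, as over those of the genome, mutants lay above wild types more often than below, and no test compared the shares of the cluster with those of the genome. Both mutants lay above both wild types in 74 of 181 tiles in embryos (40.88%, against the 31.2% of the genome given above), in 83 of 206 in E14.5 livers (40.29%, against 33.3%) and in 77 of 188 in E18.5 livers (40.96%, against 31%). The median difference over the tiles of the cluster was 2.47, 2.33 and 3.23 points, beside 1.13, 1.87 and 2.04 points over all tiles of the genome. Both mutants lay below both wild types in 12 of 181, 12 of 206 and 7 of 188 tiles, beside 9.35%, 6.2% and 6.46% of the genome's tiles. At an unadjusted p under 0.05 there were 24 of 181 tiles in embryos (10.8% in the genome) and 29 of 188 in E18.5 livers (7.5% in the genome), all higher in mutants. At an adjusted p under 0.05 and any size of difference there were 2 of 181 tiles in embryos (0.707% in the genome) and 1 of 188 in E18.5 livers (0.201% in the genome). The tile at the start site of Padi1 (from 140401001) passed the adjusted p in embryos, with 74.9% and 77.1% in wild types and 88.4% and 85.4% in mutants (10.9 points, adjusted p = 0.0236), but not the minimum of 15 points. In E18.5 livers it differed by 1.05 points (adjusted p = 0.973). Over the whole window the difference was 2.63, 3.14 and 4.42 points at E10.5, E14.5 and E18.5, and the E18.5 value was 2.24 points without mutant replicate 1.

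The genotype effects of the embryos and the E18.5 livers were compared in 1 edgeR fit of the 12 libraries. Of the 178 tiles covered in all of them, 0 passed an adjusted p of 0.05 (8 of 581510 tiles did in the genome, 0.00138%), and 10 had an unadjusted p under 0.05, beside 5.02% in the genome. For the Padi1 tile the gain was 7.11 points larger in E18.5 livers than in embryos, with an adjusted p of 0.997.

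**Figure D3:**
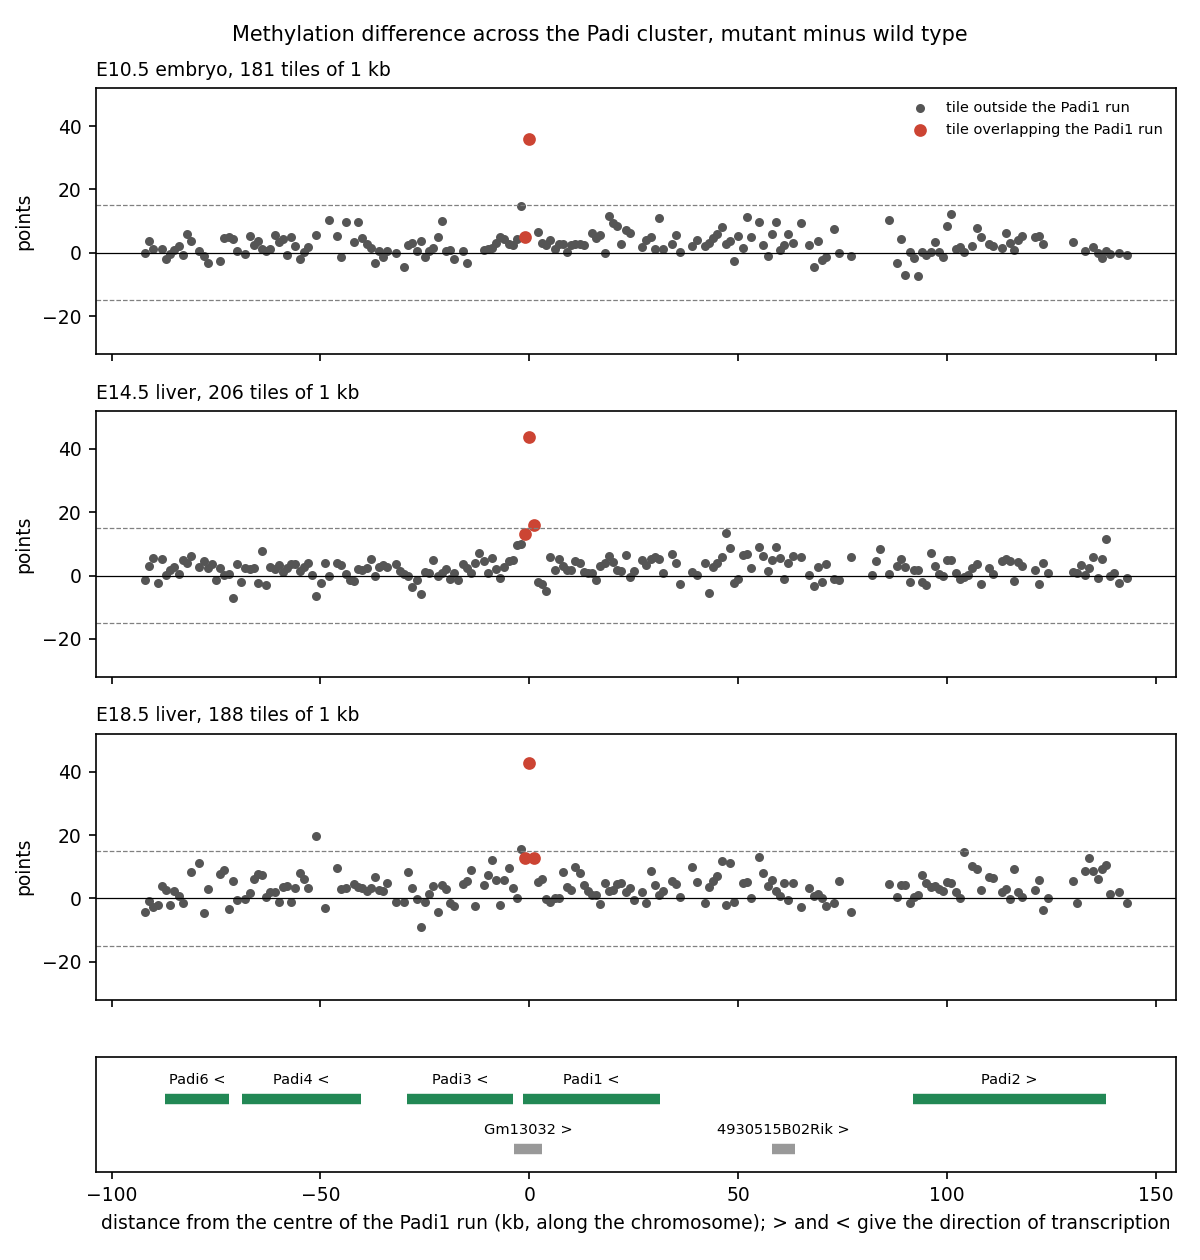
Methylation of mutants minus wild types (percentage points, y axis) in 1 kb tiles across the Padi cluster against the distance from the centre of the Padi1 run (kb, x axis), with one panel per stage, dashed lines at 15 points and a map of the genes. The Padi1 tile stands at 35.8, 43.8 and 42.9 points, and the tiles outside the run lie between -9.09 and 19.6 points.

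Among wild types, the cluster was less methylated in fetal liver than in whole embryo, as were most tiles of the genome. Of the 176 tiles outside the run, 90 were called lower and 0 higher in E14.5 livers than in E10.5 embryos, where 53.3% of the genome's tiles were called lower and 1.31% higher. At any size, 154 tiles passed the adjusted p, 151 of them lower, beside 86.5% of the genome's tiles. The median change was -15.3 points in these tiles and -15.8 points in the genome. The largest drops included -47.7 points between Padi1 and Padi2 (from 140410001) and -39.8 points in the Padi1 and Gm13032 tile described above (from 140372001). They also included -39.6 points in Padi3 (from 140343001), -39.2 points at the 3′ end of Padi2 (from 140508001) and -36.6 points near the start of Padi3 (from 140365001). The tile of the run, whose E14.5 values chose the locus, changed by -12.7 points and is given without a test and left out of these counts. Without the female E14.5 wild-type liver (replicate 2), which leaves wild-type males at both stages, 105 tiles were called lower, and without the male (replicate 1) 75 were. From E14.5 to E18.5 livers 1 tile was called higher and 0 lower, beside 1.28% and 0.0583% of the genome's tiles, and 6 passed the adjusted p at any size, beside 5.32%. That called tile lies in 4930515B02Rik (from 140429001) and rose from 38.2% and 39.5% to 59.0% and 55.7% (18.48 points, adjusted p = 0.0118). The call was lost without E14.5 wild-type replicate 1, which leaves female livers at both ages, without E18.5 wild-type replicate 1 and without E18.5 wild-type replicate 2, with 0 tiles called in the cluster in each case.

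The other tiles of low methylation in the cluster had no called gain with all libraries in the fit. In E14.5 wild types 17 of the 178 tiles were under 40% methylated, and 16 of them lay outside the tile of the run. Over these 16 the genotype difference ran from -7.12 to 14.8 points in embryos and from -2.01 to 19.7 points in E18.5 livers, with 0 called at either stage and medians of 2.37 and 3.53 points. The tiles from 140368001, 140319001, 140416001 and 140425001, which were called when a library was left out as given above, were among them. They include the start site of Padi2 (from 140462001), at 6.50%, 6.64% and 7.03% in wild types and 4.74%, 8.53% and 7.59% in mutants, and a tile in Padi4 (from 140306001), at 12.02%, 11.1% and 10.2% in wild types and 13.1%, 18.3% and 16.3% in mutants at the successive stages.

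The start sites of the members fell into 2 kinds. The 250 bases before the start are shown for Padi2, the member with the most RNA and a start site of low methylation, and for Padi1. They come from the NCBIM37 (mm9) reference, read in the direction of transcription, and capitals mark the CpGs.
Padi2, chr4:140462009-140462258, plus strand: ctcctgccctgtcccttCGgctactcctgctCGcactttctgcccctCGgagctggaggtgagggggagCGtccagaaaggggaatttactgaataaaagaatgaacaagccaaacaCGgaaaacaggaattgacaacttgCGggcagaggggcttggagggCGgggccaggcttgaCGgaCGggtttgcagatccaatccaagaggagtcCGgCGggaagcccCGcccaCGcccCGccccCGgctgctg
Padi1, chr4:140401694-140401943, minus strand: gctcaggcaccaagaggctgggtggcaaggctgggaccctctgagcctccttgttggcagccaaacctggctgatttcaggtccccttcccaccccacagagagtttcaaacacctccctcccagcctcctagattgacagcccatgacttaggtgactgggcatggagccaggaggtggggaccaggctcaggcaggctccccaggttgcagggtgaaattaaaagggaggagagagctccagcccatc
The Padi2 stretch holds 15 CpGs and the Padi1 stretch 0, while those of Padi3, Padi4 and Padi6 hold 3, 3 and 1. From 1 kb before to 500 bp after the start, Padi2 was 2.82% to 5.61% methylated in all 12 libraries, and the genotypes overlapped at each stage. The same region was at 54.9% to 83.98% for Padi1, 64.8% to 86.0% for Padi3, 63.2% to 88.8% for Padi4 and 45.8% to 79.6% for Padi6. The differences between genotypes there ran from -4.03 to 6.95 points over the 5 genes and 3 stages. The lowest, of Padi6 in E18.5 livers, was -16.9 points without mutant replicate 1 and 8.86 points without mutant replicate 2. Leaving out 1 library also turned the direction for Padi1 in both liver stages and for Padi2 at each stage. The same held for Padi4 in E18.5 livers and for Padi6 in embryos and E14.5 livers.

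The whole gene bodies of the 5 Padi genes differed by 0.608 to 7.05 points, with the higher mean in mutants. The groups overlapped for Padi3 in E14.5 livers and Padi6 in embryos. Without wild-type replicate 1 the E14.5 differences of Padi2, Padi3, Padi4 and Padi6 were 1.5, -0.0130, 0.384 and 1.25 points in place of 2.39, 1.49, 2.31 and 2.69. Without mutant replicate 1 the E18.5 differences of these 4 genes were 2.29, 1.11, 1.83 and 0.984 points in place of 4.51, 2.92, 4.88 and 3.94. Without mutant replicate 2 those of Padi2 and Padi6 in embryos were 0.737 and 0.127 points in place of 1.48 and 0.608. Padi1 had the largest difference at each stage, 6.43 points in embryos, 6.08 points in E14.5 livers and 7.05 points in E18.5 livers. With the run left out it was 4.32, 2.84 and 3.60 points. The last coding exons of the other members differed less between genotypes. In embryos that exon differed by 0.212 points in Padi2, 1.52 points in Padi3, -6.72 points in Padi4 and 7.83 points in Padi6, beside 33.8 points in Padi1. In E14.5 livers the differences were 7.62 points in Padi2, -7.36 points in Padi3, 0.104 points in Padi4 and 3.18 points in Padi6, beside 55.3 points in Padi1. That exon of Padi3 was at 87.6% and 87.9% in wild-type and 78.7% and 82.1% in mutant E14.5 livers, without overlap and opposite in direction to Padi1. In E18.5 livers the differences were 14.2 points in Padi2, 3.44 points in Padi3, 5.96 points in Padi4 and 13.6 points in Padi6, beside 47.8 points in Padi1. The E18.5 value of Padi2 rests on 67.3% and 53.5% in wild types and 73.7% and 75.5% in mutants, and that of Padi6 on 2 CpGs. The Padi4 value in embryos rests on 5 CpGs at 79.4% and 81.8% in wild types and 65.5% and 82.2% in mutants, and was 1.63 points without mutant replicate 1. With 1 library left out the direction also turned for Padi2 and Padi3 in embryos, Padi4 and Padi6 in E14.5 livers and Padi3 in E18.5 livers. The differences of these 4 exons then ran from -15.1 to 21.1 points, and those of Padi1 from 28.5 to 64.0 points. In Padi3 the exon was 78.7% to 93.6% methylated over the 12 libraries, and in Padi1 it was 16.3% to 45.6% in wild types and 73.0% to 83.7% in mutants.

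**Figure D4:**
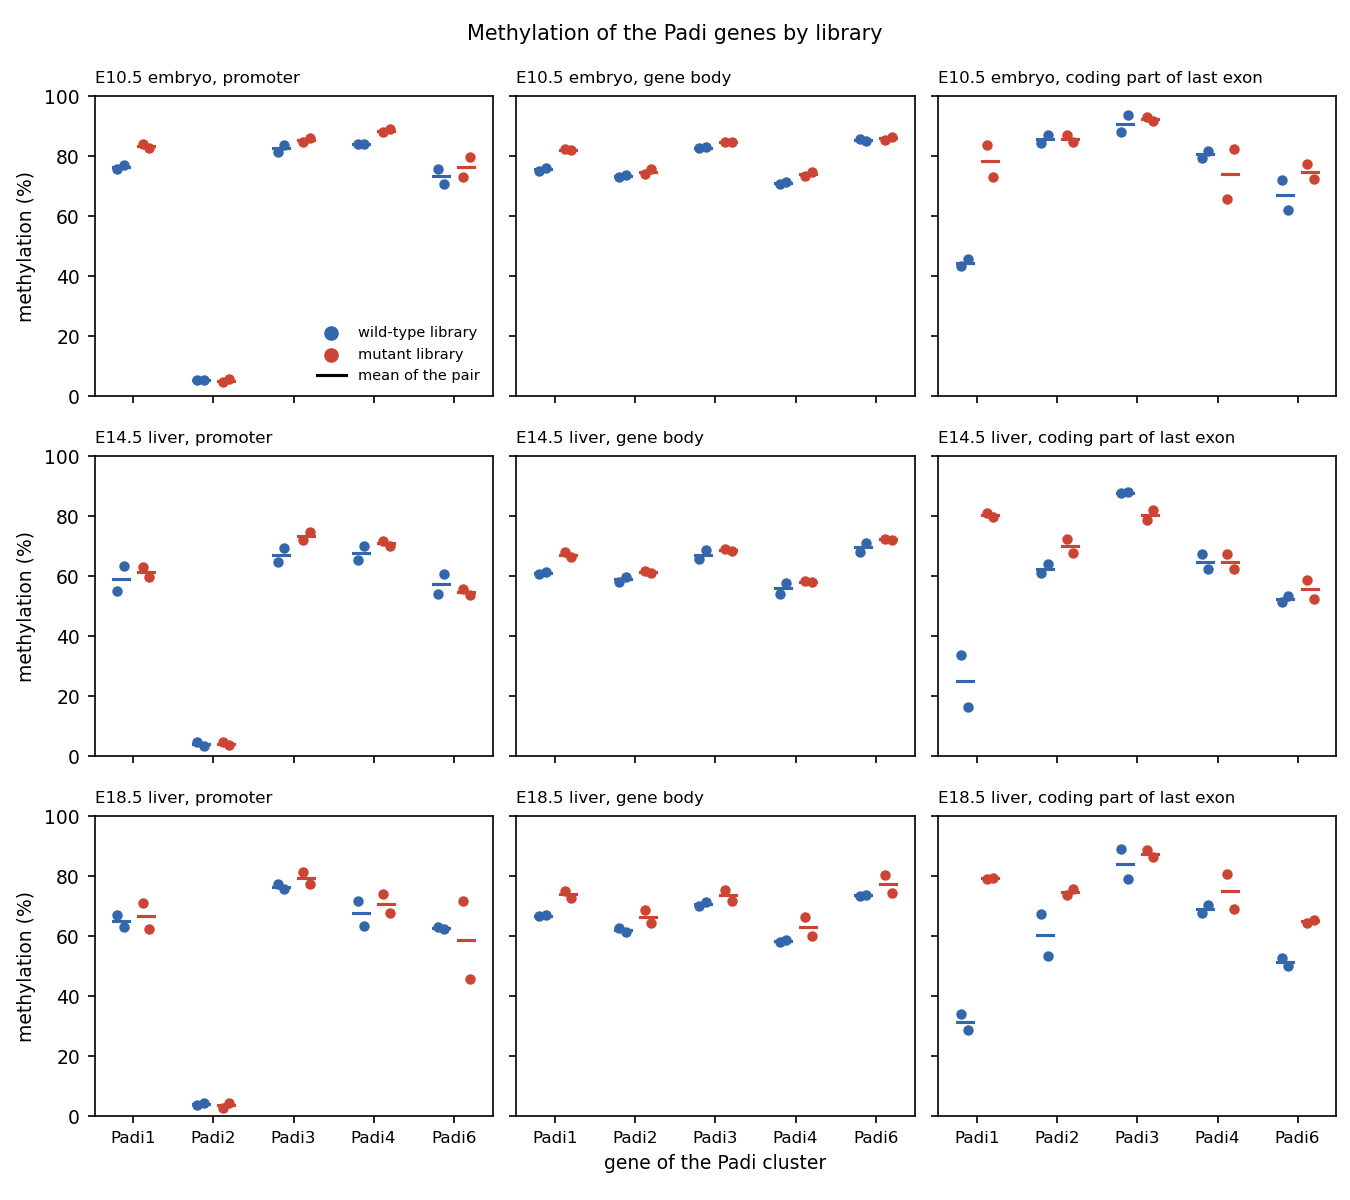
Methylation (percent, y axis) of the promoter, the gene body and the coding part of the last exon of the 5 Padi genes (x axis), with one point per library, a line for the mean of each pair and one row of panels per stage. The Padi2 promoter lies under 6% in every library, and the last exon of Padi1 is the feature with the widest gap between wild types and mutants, 33.8 to 55.3 points.

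Little RNA came from the cluster in E14.5 liver, and no member passed the test between genotypes. Per kb of exon the mean level over the 6 livers was 1.45 CPM for Padi2, 0.129 CPM for Padi4, 0.0496 CPM for Padi3, 0.0147 CPM for Padi6 and 0.00971 CPM for Padi1. Each liver's level of Padi2 per kb (1.28 to 1.71 CPM) was above each of Padi4 (0.0642 to 0.191 CPM). The range of Padi4 overlapped that of Padi3 (0.0192 to 0.111 CPM), and Padi3 overlapped Padi6 (0 to 0.0603 CPM) and Padi1 (0 to 0.0406 CPM). In a bulk liver, fewer cells of a type and less RNA per cell cannot be told apart.

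Padi2 was the only member of the 5 that passed the filter on low counts. Wild types had 100, 97 and 93 counts of it and mutants 88, 119 and 109. By counts the lowest liver and the 2 highest were mutants, so the groups overlapped. In CPM this was 6.85 ± 0.67 (SD, n = 3) in wild types and 7.69 ± 0.88 (SD, n = 3) in mutants (log2 fold change 0.17, SE 0.14, adjusted p = 0.6341 by edgeR's quasi-likelihood test over 14183 genes). In that test 197 genes were called (1.39%), 99 higher (0.698%) and 98 lower (0.691%) in mutants, and 14.6% had an unadjusted p under 0.05. With replicate number as a block 460 genes were called (3.24%), and Padi2 was at a log2 fold change of 0.17 with an adjusted p of 0.624. DESeq2 did not call Padi2 either (adjusted p = 0.9149).

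Padi1, whose last exon carried the methylation gain, had 2, 1 and 0 counts in wild types and 0, 0 and 0 in mutants. At this depth 3 counts in a library correspond to 0.198 to 0.233 CPM, and each liver was under that, so no difference was detectable. Padi6 had 2, 0 and 1 counts in wild types and 0, 0 and 0 in mutants, likewise under 3 counts in each liver. Padi3 had 5, 1 and 3 counts in wild types and 2, 1 and 2 in mutants (two-sided exact permutation p = 0.5, n = 3 a group).

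Padi4 had 7, 14 and 12 counts in wild types and 4, 9 and 7 in mutants. The wild types were higher on average, at 0.767 ± 0.206 CPM against 0.484 ± 0.170 CPM (SD, n = 3), and the groups overlapped (two-sided exact permutation p = 0.2). Padi4 was lower in the mutant of each of the 3 same-numbered pairs of livers (exact paired permutation p = 0.25, the smallest that 3 pairs allow, chosen after seeing the data). Without the filter on low counts its log2 fold change was -0.65 (SE 0.46, edgeR adjusted p = 0.6764). The lincRNA Gm13032, which overlaps the Padi1 run, had 2, 2 and 3 counts in wild types and 1, 0 and 1 in mutants. These groups did not overlap (exact permutation p = 0.1, the smallest that 3 against 3 allows), as 20.3% of the genes tested did not, and all 6 values were at or under 3 counts. Reads were counted without strand under rules that drop ambiguous reads, so reads lying in exons of both Padi1 and Gm13032 went to neither gene.

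**Figure D5:**
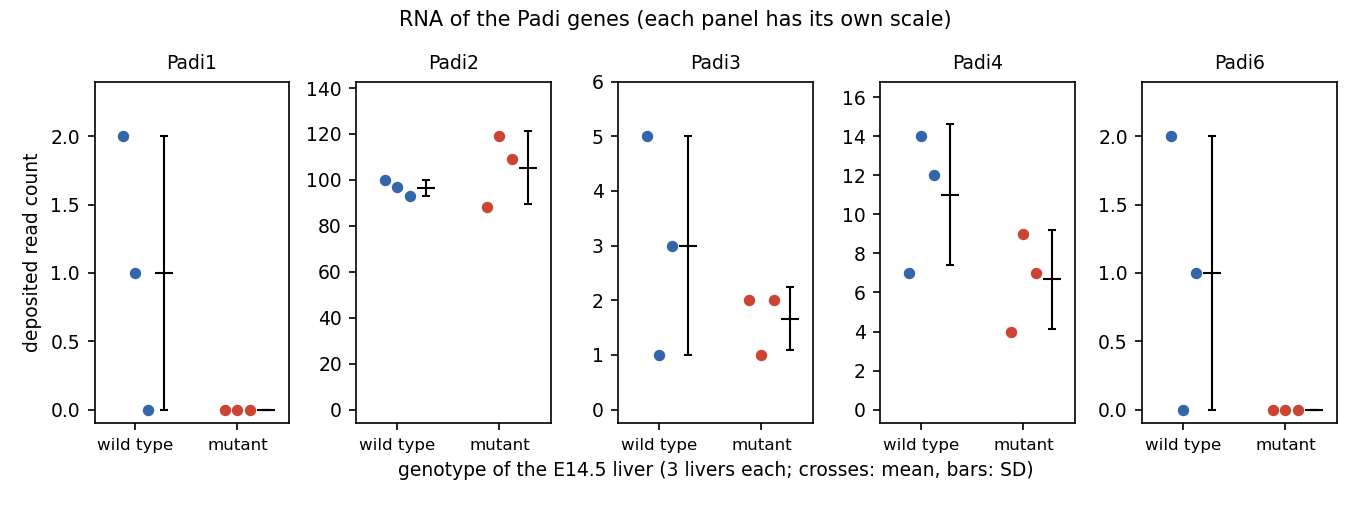
Deposited RNA read counts (y axis, one scale per panel) of the 5 Padi genes in the 3 wild-type and 3 mutant E14.5 livers (x axis), with one point per liver, a cross for the mean and a bar for the SD. Padi2 stands at 88 to 119 counts with overlapping groups, Padi4 at 4 to 14, and Padi1 and Padi6 at 0 to 2 with 0 in every mutant.

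Padi4 is a neutrophil enzyme, and neutrophil markers were lower in the same mutant livers. Of 12 neutrophil markers tested, 6 were called lower and 0 higher, where 0.691% of all genes were called lower and 0.698% higher. Their median log2 fold change was -0.68 beside -0.0017 over all genes tested. This list and the other gene lists below were drawn up with earlier results of these data known, so their counts are a description. The summed marker level was 933 to 1367 CPM in wild types and 766 to 894 CPM in mutants, and 0 of the 12 markers were at 0. Camp, an antimicrobial peptide of secondary granules, was at 63.4 ± 14.3 CPM in wild types and 34.2 ± 1.05 CPM in mutants (log2 fold change -0.89, adjusted p = 0.006467, edgeR). The other called markers were the granule proteins Ngp (-0.93) and Ltf (-0.86), the calcium-binding S100a8 (-0.67) and S100a9 (-0.69), and the protease Elane (-0.76), while Mpo stood at 0.13 (adjusted p = 0.6465). Only Camp was still called without mutant replicate 1 or without mutant replicate 3, where 1 of the 12 was called each time. DESeq2 called 3 of them (S100a8, Camp and Ngp), and 7 were called with the replicate block, the added one being Fcnb. The part of these cells in the Padi4 counts was not tested. Among other myeloid markers, Prg2 of eosinophils fell (51.2 ± 4.67 to 21.3 ± 4.13 CPM, log2 fold change -1.27, adjusted p = 0.000431) and so did Cd5l of macrophages (107 ± 21.4 to 46.9 ± 8.31 CPM, -1.19, adjusted p = 0.001874), each as 1 called of 4 and of 10 markers tested. The median log2 fold change was -0.89 over the eosinophil markers and 0.02 over the macrophage markers. The summed eosinophil level was 64.8 to 79.6 CPM in wild types and 27.3 to 39.4 CPM in mutants, and the summed macrophage level 736 to 806 CPM and 704 to 723 CPM. Pf4 of megakaryocytes rose (151 ± 4.86 to 200.3 ± 13.8 CPM, 0.40, adjusted p = 0.01427), 1 called of 6. Of these 6 markers 5 had an unadjusted p under 0.05 by edgeR, beside 14.6% of all genes tested. The summed megakaryocyte level was 490.5 to 515 CPM in wild types and 580 to 650 CPM in mutants, without overlap. Prg2 and Cd5l were called in all 11 alternatives and Pf4 in 9, its call being lost without wild-type replicate 3 and without mutant replicate 3. With the replicate block the eosinophil genes Epx and Ear2, the macrophage receptor Marco and the megakaryocyte integrin Itga2b were called as well. The erythroid list had 0 called of 7 (2 lower, Hba-a1 and Hbb-b1, without wild-type replicate 2), the hepatoblast list 0 of 6 and the mast cell and basophil list 0 of 5. The summed erythroid level was 23020 to 45630 CPM in wild types and 29680 to 32220 CPM in mutants. The wild-type livers thus spread more widely in it than the mutants. The summed hepatoblast level was 52670 to 63170 CPM in wild types and 64930 to 75610 CPM in mutants, without overlap. Without the filter on low counts the hepatoblast gene Alb was called higher and the basophil gene Mcpt8 lower.

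The lists of genes known to act with the deiminases were read against the 1.39% of all genes tested that were called. Of the partners of Padi6 in the subcortical maternal complex, 2 of 7 passed the filter, Zbed3 and Tle6, and 0 were called, with 3 members at 0 in every liver. Of the genes of cornified envelope and hair follicle, which include substrates of Padi1 and Padi3, 3 of 12 found in the table passed and 0 were called. The keratinocyte markers had 0 called of 3 tested, and the 6 oocyte markers summed to 0.310 to 0.702 CPM with 0 tested. Among 8 other known substrates Eno1, the glycolytic enolase, rose from 43.3 ± 8.78 to 68.0 ± 11.7 CPM (log2 fold change 0.65, SE 0.14, adjusted p = 0.04917, edgeR). Its counts are uncertain because near-identical gene copies can share its reads. Among 12 chromatin substrates and partners Dnmt3a, a de novo DNA methyltransferase, rose, with 101, 108 and 115 CPM in wild types and 136, 139 and 131 CPM in mutants (log2 fold change 0.32, SE 0.06, adjusted p = 0.03189). The groups did not overlap for Dnmt3a. Its adjusted p ran from 0.004425 to 0.1021 over 11 alternatives and was under 0.05 in 6 of them, the exceptions being the fits without wild-type replicate 1, wild-type replicate 3 or any one of the mutant replicates. That of Eno1 ran from 7.785e-05 to 0.1468 and was under 0.05 in 7, the exceptions being the fits without wild-type replicate 1, wild-type replicate 3, mutant replicate 1 or mutant replicate 2. With the replicate block the intermediate filament gene Vim was also called higher. Enzymes of arginine and free citrulline had 0 called of 8 tested, where Otc, which makes citrulline in the urea cycle, had a log2 fold change of -0.30 and an adjusted p of 0.09782 (edgeR), and was called lower with the replicate block, without the filter on low counts and without wild-type replicate 2. The genes of neutrophil extracellular traps had 1 called of 9, Elane, which is also on the neutrophil list. The median log2 fold change of this trap list was -0.05. Its summed level was 505 to 664 CPM in wild types and 521 to 607 CPM in mutants, so the groups overlapped. Elane was called in 4 of 11 alternatives. Its call was lost without any one of the wild-type replicates, without mutant replicate 1 and without mutant replicate 3. It was also lost with the size factors of DESeq2 in edgeR and with DESeq2 itself.

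No neighbour of the cluster was called in RNA. Of 10 other protein-coding genes within 200 kb of the outermost Padi gene ends 9 were tested and 0 were called, with a median log2 fold change of -0.03. Over all genes tested 1.39% were called and 14.6% had an unadjusted p under 0.05 by edgeR. Sdhb, a subunit of succinate dehydrogenase, was the only 1 of the 9 with such an unadjusted p (161 CPM in wild types and 142 CPM in mutants, log2 fold change -0.18, adjusted p = 0.1917 by edgeR). The genes whose log2 CPM followed Padi2 most closely over the 6 livers were Ifi35 (Pearson r 0.992), BC048546 (r 0.992) and Snord123 (r 0.987), a description over libraries that share genotype and depth, and 66 of 14182 genes had an r over 0.9.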

How the data were processed

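WGBS and RNA-seq values were taken as the authors deposited them. For WGBS the authors trimmed the reads, mapped them with Bismark and Bowtie2 to mm9 with known FVB substitutions written into the genome, removed PCR duplicates and merged the strands of each CpG, and the deposited values are counts of unconverted (methylated) and converted (unmethylated) cytosines per CpG. The deposited percent methylation of each CpG, which the authors rounded to whole percent, was not used. For RNA-seq they aligned single-end reads with TopHat and counted them per Ensembl gene with HTSeq without strand, and the deposited values are raw counts. The submitters' processing notes also name BWA and DESeq.

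Methylation levels were computed as pooled methylated reads over all reads, as a percentage of each library, from CpGs that every compared library read 6 times or more. Tiles of 1 kb needed 8 such CpGs. Tiles were tested with edgeR 4.0.16 (R 4.3.3) with an intercept for each library, and RNA with edgeR's quasi-likelihood test after TMM scaling and filterByExpr (minimum count 10, total 15), with DESeq2 1.42.0 as an alternative. Both sets of p-values were adjusted over all tiles or genes by Benjamini-Hochberg. Fits were tested on simulated data with independent libraries and a fixed spread, which does not cover effects shared by replicate number or litter. Of the 45 CpGs of the Padi1 run, 2 are not CpGs in the reference, and of its 46 reference CpGs 3 have no reads in any library. The limit of 3 counts covers counting error only, as reads carried no molecular identifiers. In RNA the same replicate numbers deviated together (correlations of 0.125, 0.226 and 0.409 between genotypes), so a block was tried. The labels do not say that samples of a group came from separate litters, so p-values measure no spread beyond these samples. The tile test used a single dispersion for all tiles of the genome and moderated the spread over them. The RNA test likewise moderated the spread over genes. A p-value of a single tile or gene therefore does not rest on its own values alone. The named genes are the 5 members, genes overlapping a called tile or the run, called genes of each list (up to 6), the 2 most abundant of each list, and neighbours within 200 kb. Members, lists and tests were chosen with earlier results of these data known. The exon sequences are not reported here.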

Additional observations from a re-analysis of the deposited data

How the results depend on the processing

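Without wild-type replicate 1 the embryo difference of the tile from 140369001, which holds the start of the run, turned from 5.06 to -1.91 points (edgeR adjusted p = 0.709 and 0.965). The mean gain of the Padi1 run over embryos and E18.5 livers was 33.8 to 39.3 points under 11 alternatives, including each library left out, a minimum of 10 reads and a run set at 20 points. Tiles of 500 bp gave 2 called tiles in embryos and 2 in E18.5 livers in place of 1, both at the run, and a minimum difference of 10 points gave 2 in embryos and 4 in place of 1 from E14.5 to E18.5 wild-type livers. With a library left out the called tiles numbered 1 to 2 in embryos, 1 to 5 in E18.5 livers and 0 to 1 from E14.5 to E18.5 wild types, the libraries being those named in the report. The 90 tiles called between E10.5 and E14.5 wild types, all lower, ran from 76 to 134 in either direction with the tile of the run counted, and outside the run the lower ones ran from 75 to 131. The alternatives that left out a library in the fit of all 12 were chosen after seeing the data.

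With the replicate block the Padi1 tile had an adjusted p of 3.66e-22 in embryos and 1.75e-19 in E18.5 livers, with 1 tile called at each stage and 0 for the difference between stages. WGBS libraries of the same replicate number deviated little together (correlations of 0.0447, 0.0513 and -0.0120 between genotypes at the successive stages). In the E14.5 livers the replicate number nevertheless went with sex. In RNA the block called 0 Padi genes, as did the other alternatives, and the log2 fold change of Padi2 ran from 0.08 to 0.25. Over all genes 197 were called, 460 with the block, 532 without a filter, 257 with DESeq2 and 66 (without mutant replicate 1) to 224 (without wild-type replicate 2) with a liver left out. Padi4 passed the filter with 4 of the livers left out in turn, and its log2 fold change then ran from -0.92 (without mutant replicate 2) to -0.44 (without mutant replicate 1), with edgeR adjusted p from 0.4715 to 0.7729. Its unadjusted p was 0.07617 to 0.3454 in these fits, and 0.1614 without a filter. The counts of Padi1, Padi3 and Padi6, at 0 to 5 a liver, limit what could be detected.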
